A study of Mus musculus with 12 samples.

Results

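The Toll-like receptor genes described here are the receptors Tlr1, Tlr2, Tlr3, Tlr4, Tlr5, Tlr7 and Tlr13, the co-receptor Ly96, the adaptor Myd88 and the inhibitor Nfkbia. They were chosen by name, as all gene probes whose gene name in the scanner files is one of these 10. The rule found 9 of the 10 names, carried by 11 of 41174 gene probes and 9 of 27962 gene names on the array. No probe was matched to Tlr13, so no expression value is given for it, and only its promoter sequence is counted below. Of the 11 probes, 10 passed the filter on dim signals, and they cover all 9 genes found.

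Total liver RNA of Abcb4 (-/-) mice was compared with that of Abcb4 (+/+) mice on 2-colour Agilent arrays, where the genotypes were labelled with Cy3 and Cy5 and hybridised together. The Abcb4 gene encodes the canalicular phospholipid transporter, and mice without it are a model of sclerosing cholangitis. The Abcb4 (-/-) mice of the first group were fed cholic acid (CA) for 9 weeks, and those of the second ursodeoxycholic acid (UDCA) for 9 weeks. The series' design text gives CA as the feed meant to increase disease activity and UDCA as the feed meant to decrease it. Each group had 5 knockout livers, unpooled, on 6 arrays, because 1 liver was hybridised again with the dyes exchanged. The knockout was in Cy5 on arrays 1 to 3 and in Cy3 on arrays 4 to 6 of each group. All knockout mice on these arrays received a bile acid, so a ratio to wild type holds genotype and feed together and these cannot be told apart. The sources used here do not give the feed of the wild-type mice, the doses, or the animals' sex, strain and age. The difference between the diets is indirect, since the diet groups were never hybridised together and each has its own wild-type channel.

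Over the arrays, the share of gene spots well above background ran from 41.6% to 68.4% in green and from 31.6% to 62.4% in red. Of the 10 hepatocyte marker genes tested, 10 were above background on all 12 arrays in both channels, and 9 were saturated on 3 or more arrays. The targeted gene was checked with its 2 probes. The probe A_52_P223194 was lower in the knockout on 6 of 6 arrays of each group, and A_51_P249118 on 5 of 6. The arrays lay on 5 slides. CA arrays 1 and 2 were on slide 1, CA arrays 3 and 4 on slide 2, and UDCA array 6 was alone on slide 5. Both diets were present on slide 3, with CA array 5 beside UDCA arrays 1 and 2, and on slide 4, where CA array 6 lay beside UDCA arrays 3 to 5.

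Toll-like receptors are membrane proteins of innate immunity that recognise microbial molecules. Those at the cell surface bind parts of the microbial envelope or flagellin, and those in endosomes bind nucleic acids. Most of them signal through the adaptor MyD88 to kinases that release the transcription factor NF-kB from its inhibitor, IkB-alpha, which Nfkbia encodes. In the liver they are best known on Kupffer cells and other myeloid cells, which meet gut-derived microbial products in portal blood, and some are also present on hepatocytes, endothelial cells, stellate cells and bile duct cells.

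The probes behind the results are 60 bases long. Those of 4 members are shown, because the text turns on the closely related receptors Tlr1 and Tlr2 and because the probes of Ly96 and Nfkbia lie across an intron. All are given 5′ to 3′ as in the scanner files, with positions in mm7.
Tlr2 probe, chr3:83941473-83941532, minus strand: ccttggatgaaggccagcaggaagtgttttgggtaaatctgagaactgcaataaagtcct
Tlr1 probe, chr5:64279687-64279746, minus strand: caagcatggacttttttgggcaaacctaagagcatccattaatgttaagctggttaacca
Ly96 probe, chr1:16895437-16898709, plus strand: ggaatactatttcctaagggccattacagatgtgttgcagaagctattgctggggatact
Nfkbia probe, chr12:53415998-53416493, minus strand: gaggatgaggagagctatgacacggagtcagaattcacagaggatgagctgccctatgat
The Ly96 probe spans 3273 bases of the genome and the Nfkbia probe 496, more than their own length. Among the probes of the Toll-like receptor genes on the array, those of Tlr2 and Tlr1 were the most alike pair, and their best ungapped alignment matched 29 of 47 bases (61.7%). The probes of Tlr2, Tlr4 and Myd88 are each spotted 10 times per array, and the median standard deviation (SD) between these spots was 0.094, 0.14 and 0.082 on the log2 scale. The other members have 1 spot per probe. Tlr3 has a pair of probes on the array, and so has Tlr4. The second Tlr4 probe, A_52_P24230, lies 86.8 kb from the first, while the RefSeq gene is 19 kb long. It was not well above background in any channel of any array, so it was not tested and no ratio is given for it.

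Start-site sequences were found in the RefSeq table for 7 of the 10 names, Tlr13 among them. Over the 250 bases before the start site, both strands were searched for the NF-kB consensus, for the PU.1 motif GAGGAAGT and for the interferon response motif. The NF-kB consensus was present in 3 of the 7, those of Tlr2, Tlr3 and Nfkbia, and in 7.25% of all 32851 windows of this length. The promoters of Tlr2 and Nfkbia are shown as examples. Their windows hold the consensus and both genes were called higher with CA, as was Tlr3, whose window is not printed in full. Tlr1 was also called higher with CA, and neither of its 2 windows holds the consensus. No window was found for Tlr4, Tlr7 and Ly96, which were higher with CA as well. The printed sequences are from GRCm38.p6, read on the gene's strand, and capitals mark the NF-kB matches.
Tlr2 promoter, chr3:83841609-83841858, minus strand: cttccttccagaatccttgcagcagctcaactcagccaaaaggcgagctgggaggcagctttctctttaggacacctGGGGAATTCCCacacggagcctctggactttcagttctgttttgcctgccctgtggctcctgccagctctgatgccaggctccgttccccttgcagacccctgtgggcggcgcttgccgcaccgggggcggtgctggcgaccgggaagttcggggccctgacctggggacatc
Nfkbia promoter, chr12:55492648-55492897, minus strand: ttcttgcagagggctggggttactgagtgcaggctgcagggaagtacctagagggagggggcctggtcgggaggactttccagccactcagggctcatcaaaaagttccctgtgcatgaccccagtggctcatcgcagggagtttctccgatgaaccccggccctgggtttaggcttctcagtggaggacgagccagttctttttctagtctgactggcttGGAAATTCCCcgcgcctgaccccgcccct
In the Tlr2 window the capitals hold overlapping matches that begin at positions -173 and -172 from the start, and in the Nfkbia window the match begins at -29. The Tlr3 window holds GGGAGTTTCC from position -211 to -202. The PU.1 motif, found in 2.44% of all windows, was present in the first of the 2 Tlr1 windows. The interferon response motif, found in 2.98%, was present in that of Myd88. A match is a run of letters and was not tested as a binding site.

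In CA-fed knockout liver, 7 of the 9 members tested were higher than in wild type, 1 was lower and 1 did not pass the test. Tlr2 had the highest fitted value, 8.62-fold, Tlr1, Tlr7, Nfkbia, Tlr4, Tlr3 and Ly96 also rose, and the flagellin receptor Tlr5 fell. The order after Tlr2 changed with the processing, and with Agilent's processed signals the log2 values were 3.34 for Tlr2, 3.24 for Tlr7, 2.38 for Tlr1, 2.18 for Tlr4 and 1.36 for Nfkbia. In UDCA-fed knockout liver 3 members were higher, Tlr2, Ly96 and Tlr1, and 6 did not pass. None was lower with limma, and none was lower at an unadjusted p under 0.05, where 5 were higher. Between the diets, 6 members were higher with CA relative to wild type, 1 (Tlr5) was lower and 2 (Ly96 and Myd88) did not pass. The test was limma's moderated test on log2 ratios with Benjamini-Hochberg adjustment over all 21688 probes tested, at an adjusted p under 0.05, and where a gene had several probes the brightest one tested stood for it. At this threshold 38.2% of the 15036 genes tested were called higher and 22.3% lower with CA. With UDCA 17.4% were higher and 8.79% lower, and between the diets 19.0% were higher and 8.81% lower. The median member ratio was 1.13 with CA on the log2 scale against 0.11 over all genes, 0.39 against 0.04 with UDCA, and 0.74 against 0.08 between the diets. Tlr3 and Tlr7 passed the filter on dim signals only through the CA-fed knockout, and Tlr1 and Tlr4 only through knockout channels. These genes thus entered the test through the channels where they were high. Without the filter their calls were the same.

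The call counts of members with UDCA and between the diets changed with the scaling, and those with CA did not. Without background correction, or without the dye term in the fit, all member calls were the same. The parts of dim signals and dye bias were not tested apart. Several members were close to background in wild type, where the offset added to each signal pulls ratios toward 0. With Agilent's processed signals, whose background subtraction and dye normalization also differ, 6 members were called higher with UDCA in place of 3, the others being Tlr3 (0.74), Tlr4 (1.03) and Tlr7 (1.18). With median centring in place of loess, the median of all genes moved from 0.11 to 0.31 with CA and from 0.04 to 0.33 with UDCA. The share of higher genes among all called genes then moved from 63.1% to 84.2% with CA, from 66.5% to 94.4% with UDCA and from 68.3% to 87.4% between the diets. Under that centring 1 member, Tlr7, kept its call of a higher ratio with CA than with UDCA.

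**Figure D1:**
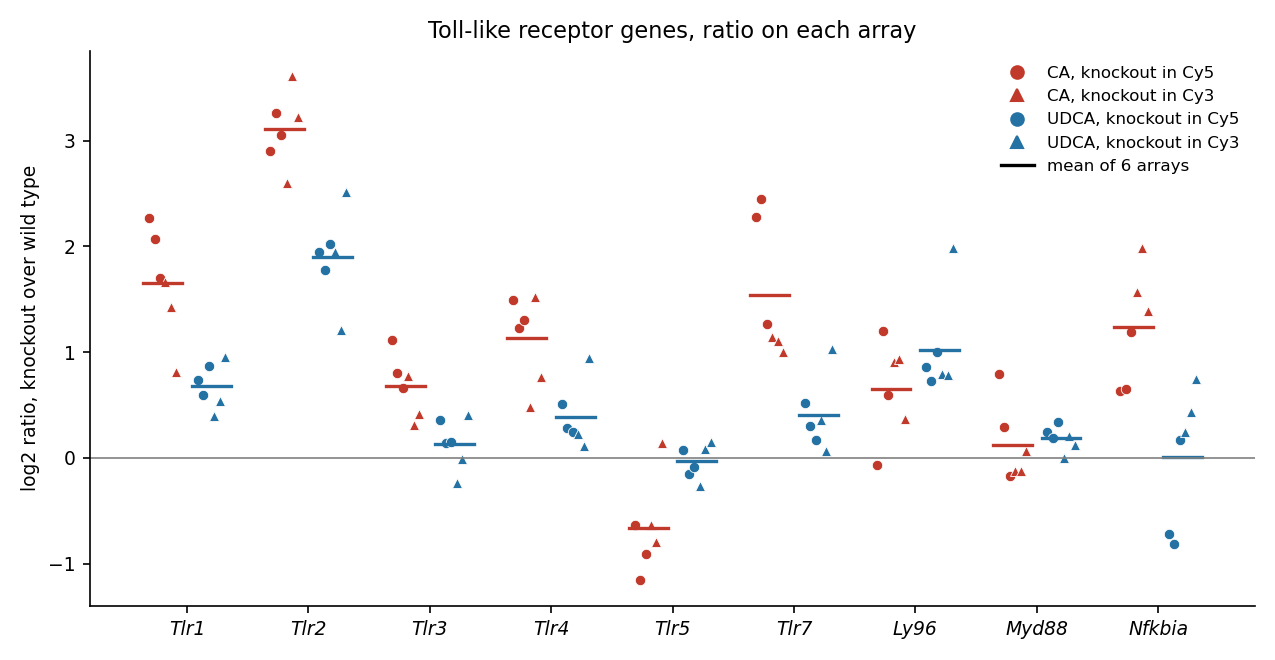
Log2 ratio of knockout over wild type (vertical axis) for the 9 members tested, 1 point per array, 6 arrays per diet group, with circles where the knockout was in Cy5 and triangles where it was in Cy3. Horizontal bars are means of 6 arrays. The CA and UDCA points of Tlr2 do not overlap, and those of the other members do.

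Among the receptors at the cell surface, Tlr2 recognises bacterial lipopeptides. Its log2 ratio of knockout over wild type on the CA arrays had a lowest value of 2.60, a median of 3.14 and a highest value of 3.61. On the UDCA arrays these were 1.21, 1.95 and 2.51. Every CA array lay above every UDCA array, which held for 1 of the 9 members. Over all genes tested, CA lay wholly above UDCA for 7.18% and wholly below for 3.10%. The fitted change was 3.11 with CA (SE 0.15, adjusted p = 7.2e-10) and 1.90 with UDCA (SE 0.15, adjusted p = 3.91e-07). The difference between the diets was 1.21 (SE 0.21, adjusted p = 0.000916).

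The Tlr2 probe was well above background in both channels on all 12 arrays. Its channel level, on a log2 intensity scale, was 12.41 ± 0.87 in CA-fed knockout (SD, n = 6 arrays), 11.03 ± 0.36 in UDCA-fed knockout, 9.29 ± 0.84 in wild type on the CA arrays and 9.13 ± 0.39 in wild type on the UDCA arrays. The wild-type levels of the 2 array groups lay within their SDs of each other, and both knockout levels lay above them by more than the SDs.

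Tlr1 forms a heterodimer with Tlr2. On the CA arrays its log2 ratio had a lowest value of 0.81, a median of 1.68 and a highest value of 2.27, and on the UDCA arrays 0.39, 0.67 and 0.95. It was above 0 on all 12 arrays, and the 2 groups met only through CA array 6 at 0.81, below UDCA arrays 3 and 6. The change was 1.66 with CA (SE 0.13, adjusted p = 6.44e-08), 0.68 with UDCA (adjusted p = 0.00143) and 0.98 between them (SE 0.19, adjusted p = 0.00171). The last was 0.37 (adjusted p = 0.48) with Agilent's processed signals and 0.55 (adjusted p = 0.21) with slide as a fixed block. The UDCA call was just lost with median centring (adjusted p = 0.0501). Wild type was well above background on 4 of 6 CA arrays and on 1 of 6 UDCA arrays, and the knockout on all 12. The levels ran from 9.57 ± 0.31 in CA-fed knockout (SD, n = 6 arrays) through 7.91 ± 0.60 and 7.89 ± 0.30 in wild type on the CA arrays and UDCA-fed knockout to 7.21 ± 0.36 in wild type on the UDCA arrays.

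Tlr4 is the receptor for bacterial lipopolysaccharide. Its log2 ratio ran from 0.48 on CA array 4 to 1.52 on CA array 5, with a median of 1.27, and from 0.11 on UDCA array 5 to 0.95 on UDCA array 6, with a median of 0.26. All 12 ratios were above 0. The change was 1.13 with CA (SE 0.14, adjusted p = 6.67e-06). With UDCA it was 0.39 (95% interval 0.08 to 0.69, adjusted p = 0.061), and 0.24 without UDCA replicate 6. Between the diets it was 0.74 (SE 0.20, adjusted p = 0.013), a call that was lost without slide 1 (0.65, adjusted p = 0.067). Wild type was well above background on 4 of 6 CA arrays and 2 of 6 UDCA arrays. The knockout levels were 8.69 ± 0.58 with CA and 8.13 ± 0.31 with UDCA (SD, n = 6 arrays), within their SDs of each other, and the wild-type levels were 7.57 ± 0.54 and 7.75 ± 0.17.

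Tlr5, the receptor for flagellin, was the member that fell. On the CA arrays its ratios ran from -1.16 to 0.15 with a median of -0.71, and 5 of 6 were below 0. CA array 6 at 0.15 was the exception. On the UDCA arrays 3 were above and 3 below 0, between -0.27 and 0.15. The change was -0.66 with CA (SE 0.13, adjusted p = 0.000366) and -0.03 with UDCA (95% interval -0.30 to 0.24, adjusted p = 0.89). The difference of -0.63 (SE 0.18, adjusted p = 0.017) was not called without slide 1 (-0.56, adjusted p = 0.063), without slide 2 (-0.58, adjusted p = 0.060) or with slide as a fixed block (-0.18, adjusted p = 0.79). The Tlr5 levels were lowest in CA-fed knockout, at 7.60 ± 0.33 (SD, n = 6 arrays). The other 3 lay between 8.26 and 8.38, within their SDs of each other. Its probe was well above background on 4 of 6 CA arrays in the knockout and 5 of 6 in wild type.

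Among the endosomal receptors, Tlr7 recognises single-stranded RNA. Its ratios on CA arrays 1 and 2, both on slide 1, were 2.28 and 2.44, and on the other CA arrays they lay between 1.0 and 1.27. On the UDCA arrays the lowest was 0.07, the median 0.33 and the highest 1.03, on UDCA array 6. All 12 ratios were above 0, and the groups overlapped only there. The change was 1.54 with CA (SE 0.18, adjusted p = 2.55e-06). The mean over slide 1 was 2.36 and over the other CA arrays 1.13. The median red signal before correction was 105.6 and 158.2 on slide 1, and 59.2 to 65.7 on the other CA arrays. Whether the slide, the signal strength or the mice set this apart was not tested. With UDCA the change was 0.41 (95% interval 0.03 to 0.78, adjusted p = 0.11), 0.23 without UDCA replicate 6 and 0.72 with slide as a fixed block, where it was called (adjusted p = 0.00202). The difference was 1.13 (SE 0.25, adjusted p = 0.0039), and 0.71 (adjusted p = 0.020) without slide 1. Wild type was well above background on 3 of 6 CA arrays and 1 of 6 UDCA arrays, and the UDCA-fed knockout on 4 of 6.

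Tlr3 recognises double-stranded RNA. At its brighter probe the ratios ran from 0.32 to 1.11 on the CA arrays, all above 0, and from -0.24 to 0.40 on the UDCA arrays, with 4 above 0. The change was 0.68 with CA (SE 0.11, adjusted p = 6.3e-05), 0.13 with UDCA (95% interval -0.09 to 0.36, adjusted p = 0.42) and 0.55 between the diets (SE 0.15, adjusted p = 0.015). The second probe lies 280 bases away. It was also higher with CA (0.45, adjusted p = 0.00185) and not called with UDCA (0.22, adjusted p = 0.16), but its difference between the diets did not pass (0.23, 95% interval -0.09 to 0.55, adjusted p = 0.27). The brighter probe's difference was not called without slide 1 (0.45, adjusted p = 0.068) or with slide as a fixed block (0.37, adjusted p = 0.39). Its knockout signal was well above background on 6 of 6 CA arrays and 3 of 6 UDCA arrays.

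**Figure D2:**
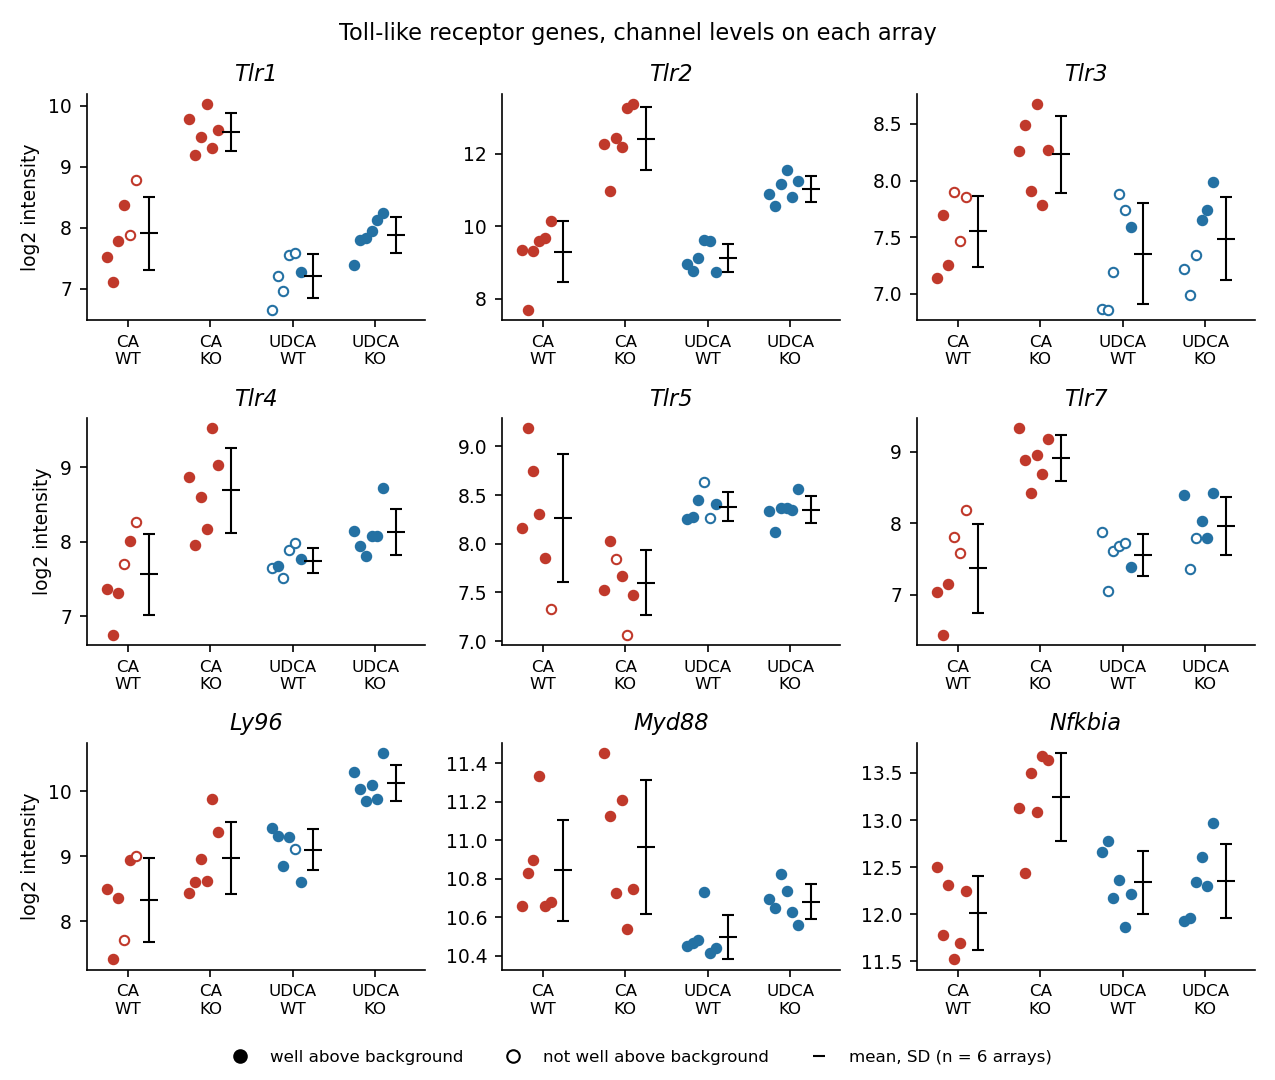
Log2 channel intensity after normalization between arrays (vertical axis) of wild type (WT) and Abcb4 knockout (KO) on the CA and UDCA arrays, 1 panel per member, 1 point per array, with mean and SD of 6 arrays beside them. Open points were not well above background. In the Tlr1, Tlr3, Tlr4 and Tlr7 panels several wild-type points are open, and in those of Tlr2, Myd88 and Nfkbia none is.

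Ly96 encodes MD-2, the protein that binds lipopolysaccharide together with Tlr4. On the CA arrays its ratios ran from -0.07 on CA array 1 to 1.20 on CA array 2, with a median of 0.75. On the UDCA arrays 5 ratios lay between 0.73 and 1.0, and UDCA array 6 stood apart at 1.98. The change was 0.65 with CA (SE 0.17, adjusted p = 0.00365) and 1.02 with UDCA (SE 0.17, adjusted p = 0.000378). Without UDCA replicate 6 the latter was 0.84 and still called. The difference between the diets was -0.37 with a 95% interval of -0.88 to 0.14 (adjusted p = 0.27). The highest Ly96 level was in UDCA-fed knockout, at 10.13 ± 0.28 (SD, n = 6 arrays), followed by 9.10 ± 0.32 in wild type on the UDCA arrays, 8.97 ± 0.56 in CA-fed knockout and 8.32 ± 0.65 in wild type on the CA arrays.

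Myd88, the adaptor shared by most of these receptors, did not pass the test in any comparison. On the CA arrays 3 ratios were above and 3 below 0, with a median of -0.03, and CA array 1 was highest at 0.80. On the UDCA arrays all 6 were above 0, between 0.0031 and 0.34. The change was 0.12 with CA (95% interval -0.11 to 0.36, adjusted p = 0.35) and 0.18 with UDCA (95% interval -0.05 to 0.42, adjusted p = 0.26). The difference was -0.06 (95% interval -0.39 to 0.27, adjusted p = 0.81). Its probe was well above background in both channels of all 12 arrays, and its 4 mean levels lay between 10.50 and 10.96.

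Nfkbia, itself a target gene of NF-kB, was higher with CA on 6 of 6 arrays, between 0.63 and 1.98 with a median of 1.29. The knockout signal on CA array 4 was saturated, so its ratio of 1.57 is bounded by the scanner. With UDCA its ratios were -0.72 and -0.82 on arrays 1 and 2, both on slide 3, and between 0.17 and 0.75 on the other 4. The change was 1.24 with CA (SE 0.14, adjusted p = 1.75e-06) and 0.01 with UDCA (95% interval -0.28 to 0.30, adjusted p = 0.97). The difference between the diets was 1.23 (SE 0.19, adjusted p = 0.000424). The UDCA value changed sign under several alternatives, between -0.12 and 0.42, and was not called under any of those run. Nfkbia was the member with a called dye effect (-0.44 on the log2 scale, adjusted p = 0.00709), which the fit includes as a term. Its levels were 13.24 ± 0.47 in CA-fed knockout (SD, n = 6 arrays), and 12.01 ± 0.39, 12.34 ± 0.34 and 12.35 ± 0.40 in wild type on the CA arrays, wild type on the UDCA arrays and UDCA-fed knockout. The last 3 lay within their SDs of each other.

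**Figure D3:**
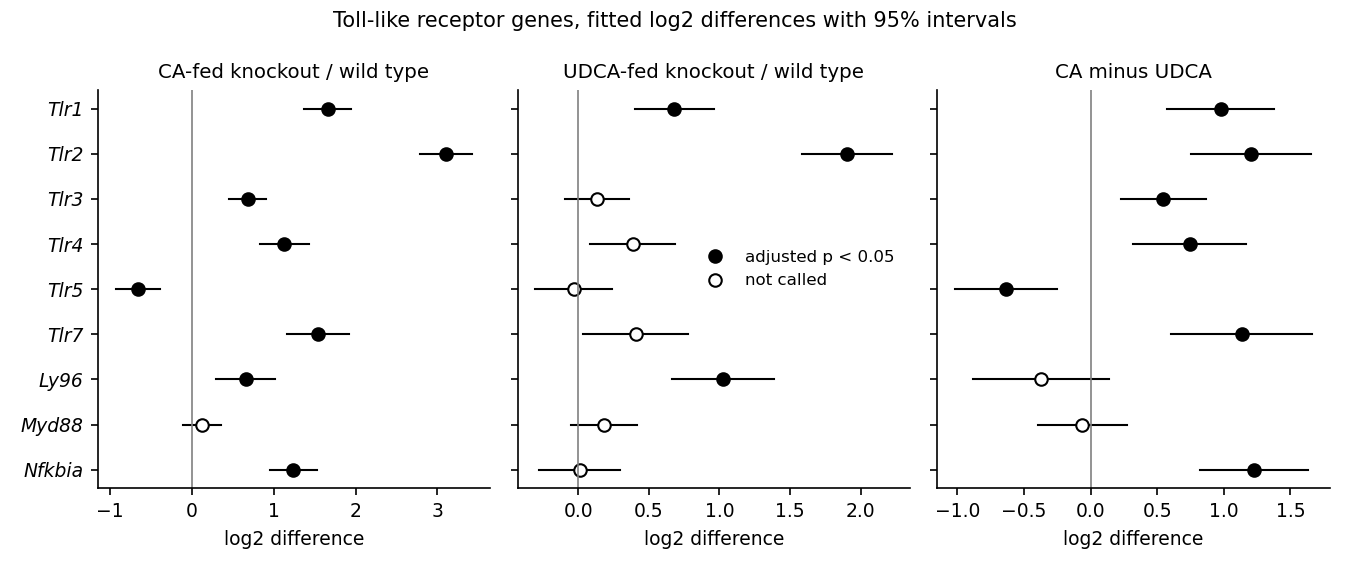
Fitted log2 differences (horizontal axes) with 95% intervals for the 9 members. The left panel sets CA-fed knockout against wild type, the middle panel does so for UDCA, and the right panel is CA minus UDCA. Filled points passed an adjusted p of 0.05 and open points did not. In the left panel 8 points are filled, in the middle panel 3 and in the right panel 7.

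The diets could be set side by side on the slides that held both. On slide 3, CA array 5 minus the mean of UDCA arrays 1 and 2 was 2.75 for Nfkbia, 1.75 for Tlr2 and 1.12 for Tlr4. It was 0.76 for Tlr1, 0.69 for Tlr7 and 0.07 for Tlr3, and -0.75 for Tlr5. On slide 4, CA array 6 minus the mean of UDCA arrays 3 to 5 was 1.50 for Tlr2, 1.11 for Nfkbia, 0.80 for Tlr7 and 0.57 for Tlr4. It was 0.45 for Tlr3 and 0.21 for Tlr1, and for Tlr5 it was 0.23, the opposite sign to the fit. For Ly96 it was 0.14 on slide 3, also opposite to the fit, and -0.49 on slide 4, and for Myd88 -0.34 and -0.12. The sign was that of the fit for 8 of 9 members on each slide. Each of these slides held 1 CA array, so neither was tested on its own, and on slide 3 the dyes of CA and UDCA arrays were opposite. The values within slides are not corrected for dye. Nfkbia, the largest on slide 3, had a called dye effect (-0.44), whose sign raises its difference there. With slide as a fixed block, where the diet difference rests on slides 3 and 4 and so on CA arrays 5 and 6 alone, Tlr2 (1.84, adjusted p = 0.00178), Tlr4, Tlr7 and Nfkbia kept their calls between the diets.

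**Figure D4:**
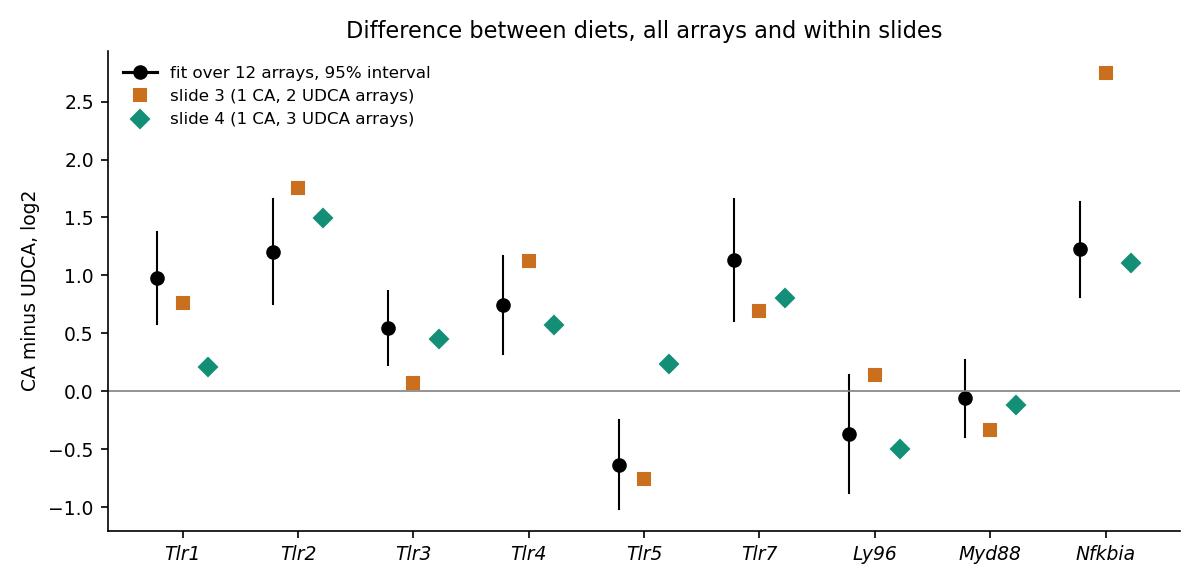
Log2 ratio with CA minus that with UDCA (vertical axis) for the 9 members, from the fit over 12 arrays with its 95% interval (circles), within slide 3 (squares, 1 CA and 2 UDCA arrays) and within slide 4 (diamonds, 1 CA and 3 UDCA arrays). Tlr2, Tlr4, Tlr7 and Nfkbia lie above 0 in all 3, and Tlr5 lies on opposite sides of 0 on the slides.

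The other genes of the pathway were taken as 7 lists with 91 genes, of which 76 were tested. With CA 43 were higher and 13 lower, with UDCA 28 and 9, and between the diets 27 and 5. Over all genes the shares were 38.2% and 22.3%, 17.4% and 8.79%, and 19.0% and 8.81%. The lower counts lay near these shares. With median centring the lower counts were 1, 0 and 2, and the higher count between the diets was 4. Of the other Toll-like receptors, 2 of 5 were tested. Tlr9, the receptor for unmethylated DNA, was lower with CA (-0.93, adjusted p = 6.61e-05) and with UDCA (-0.51, adjusted p = 0.020), but was called in neither with median centring. Tlr6, another partner of Tlr2, was higher with CA (0.51, adjusted p = 0.012) and was 0.43 with UDCA (adjusted p = 0.064).

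Of the 8 co-receptors and receptor chaperones, 5 were higher and 1 lower with CA, and 5 were higher with UDCA. Between the diets 2 were higher with CA and 1 lower. Their median was 0.67 with CA and 0.58 with UDCA. Cd14, which delivers lipopolysaccharide to Tlr4 and Ly96, was 3.73 with CA and 2.50 with UDCA (adjusted p = 8.8e-10 and 2.19e-07). Ly86, the partner of the Toll-like protein Cd180, was 3.14 and 1.23, with a difference of 1.91 (adjusted p = 2.85e-05). Cd36, a fatty acid translocase that also assists Tlr2, ran the other way, at 1.49 with CA and 3.06 with UDCA (difference -1.57, adjusted p = 0.000434).

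Of 19 other adaptors and kinases tested, 4 were higher and 6 lower with CA, where 38.2% and 22.3% of all genes were. Their median was -0.04, against 0.11 over all genes. With median centring it turned to 0.25, against 0.31 over all genes. With UDCA 5 were higher. By limma 0 were lower with UDCA, and 2 were at an unadjusted p under 0.05. Between the diets 2 were higher with CA and 3 lower. Tab1, an activator of the kinase Tak1, was 1.32 with CA and 0.49 with UDCA (adjusted p = 1.46e-08 and 0.00107). Traf3, which links receptors to interferon-inducing kinases, was 0.91 and 0.70 (adjusted p = 6.39e-06 and 0.000353), and Ikbke, one of those kinases, was 0.61 with UDCA (adjusted p = 0.021). Chuk, a catalytic subunit of the IkB kinase, was -1.19 with CA (adjusted p = 1.35e-06) and -0.88 between the diets (adjusted p = 0.00253), and neither was called with median centring. Ikbkg, the regulatory subunit of the same kinase, was -0.70 between the diets (adjusted p = 0.010). With median centring the UDCA values of Tab1, Traf3 and Ikbke and the diet difference of Ikbkg kept their sign but were not called.

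The inhibitors of the pathway, the group of Nfkbia, had 15 genes tested beside it. With CA 10 were higher and 2 lower, with UDCA 5 and 3, and between the diets 7 were higher with CA. By limma 0 were lower between the diets, and 2 were at an unadjusted p under 0.05. The median was 0.41 with CA and 0.0081 with UDCA. Tnfaip3, the deubiquitinase A20, was 2.65 with CA and 2.45 with UDCA (adjusted p = 1.56e-09 and 3.46e-08). Its partner Tnip1 was 1.93 and 1.25, with a difference of 0.69 (adjusted p = 0.013). Nfkbie, which encodes IkB-epsilon, was 1.98 and 0.73, with a difference of 1.25 (adjusted p = 0.00118). Irak3, an inhibitory kinase of the MyD88 complex, was 0.89 higher with CA than with UDCA (adjusted p = 0.017). With median centring, the differences of Tnip1, Nfkbie and Irak3 between the diets were positive but not called, and that of Irak3 was not called with Agilent's processed signals either. Under that centring 0 of the 15 were called higher between the diets by limma, in place of 7, and 2 were at an unadjusted p under 0.05. Nfkbia itself was 1.04 there (adjusted p = 0.26). The difference of Tnfaip3 between the diets was 0.20 (adjusted p = 0.49).

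Of 9 NF-kB and IRF transcription factors tested, 8 were higher with CA. By limma 0 were lower with CA, also at an unadjusted p under 0.05. With UDCA 3 were higher and 1 was lower, and between the diets 6 were higher with CA. Their median was 0.95 with CA and 0.38 with UDCA. Relb was 2.97 with CA and 1.64 with UDCA (adjusted p = 1.1e-09 and 1.78e-06). Irf8, a factor of myeloid cells, was 1.96 and 0.90 (adjusted p = 7.2e-10 and 5.8e-06). Nfkb1 was 1.85 with CA and 1.46 between the diets (adjusted p = 1.7e-07 and 0.000441), Nfkb2 was 0.65 with UDCA (adjusted p = 0.00843) and Irf5 was 1.21 between the diets (adjusted p = 0.000929). With median centring 0 of the 9 were called between the diets by limma, in place of 6, and 4 were higher at an unadjusted p under 0.05. The differences of Relb, Nfkb1 and Irf5 stayed positive. Rel was not well above background on any array.

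Of 17 NF-kB target genes of innate immunity tested, 13 were higher and 2 lower with CA, 9 and 1 with UDCA, and 9 and 1 between the diets. With median centring the last were 3 and 1. Their median was 1.59 with CA and 0.62 with UDCA. Vcam1, an adhesion molecule for leukocytes, was 3.92 with CA and 1.85 with UDCA, with a difference of 2.08 (adjusted p = 2.63e-05). Icam1, another adhesion molecule, and Ier3 were 2.61 and 2.45 with CA (adjusted p = 2.12e-09 and 3.13e-07). With UDCA, Lcn2, an iron-sequestering protein, was 2.35 and the monocyte chemokine Ccl2 was 2.22 (adjusted p = 1.18e-07 and 0.000319). Birc3 was 1.98 higher with CA than with UDCA (adjusted p = 6.76e-06). Saa3, an acute phase protein, was the exception between the diets, at -2.20 (adjusted p = 7.64e-06). Il12b, Ptgs2, Nos2 and Ifnb1 were not well above background on any array.

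Of the interleukin 1 receptor family and its ligands, 6 of 9 genes were tested. Its signalling receptors use the same adaptor Myd88, while Il18, Il33 and Il1a in this list are ligands. With CA 2 were higher and 1 was lower, with UDCA 1 and 3, and between the diets 1 was higher. By limma 0 were lower between the diets, and 1 was at an unadjusted p under 0.05. Over all genes the shares were 38.2% and 22.3% with CA, 17.4% and 8.79% with UDCA, and 19.0% higher between the diets. The CA counts and the higher counts with UDCA and between the diets lay near those shares. The median was 0.03 with CA and -0.12 with UDCA, against 0.11 and 0.04 over all genes. With median centring 0 were lower with UDCA by limma, also at an unadjusted p under 0.05. Il1rap, the shared accessory chain, was -1.90 with CA and -1.26 with UDCA (adjusted p = 5.09e-07 and 0.00014, the latter not called with median centring). Il33 was 1.13 and 0.74 (adjusted p = 2.74e-06 and 0.00064), and Il1rl1, its receptor, was 0.63 with CA (adjusted p = 0.00322). Il18 was -0.43 with UDCA (adjusted p = 0.012) and Il1r1 was 0.49 between the diets (adjusted p = 0.031), both not called with median centring.

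Macrophage and monocyte markers were mostly higher in the same livers. In bulk liver RNA, more cells of a type and more RNA of a gene per cell cannot be told apart. Of 13 macrophage and monocyte markers, 12 were higher with CA and 10 with UDCA, and between the diets 7 were higher with CA and 1 lower. With median centring the counts between the diets were 2 and 0. By limma 0 were lower against wild type with either diet, also at an unadjusted p under 0.05. Ccr2, the monocyte chemokine receptor, was 4.15 with CA, and Trem2 was 3.71 with CA and 2.96 with UDCA (adjusted p = 1.54e-08, 3.61e-09 and 2.19e-07). The median of the list ran from 1.31 to 2.32 over the CA arrays and from 0.45 to 1.24 over the UDCA arrays. Its summed intensity ran from 96760 to 337400 in CA-fed knockout and 54460 to 150600 in wild type on the same arrays. In UDCA-fed knockout it ran from 60950 to 140000, and in wild type there from 33540 to 43110. None of the 13 was below background throughout. The part of these cells in the member ratios was not tested.

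Markers of the resident Kupffer cells moved otherwise. Of 10, 7 were lower and 3 higher with CA, 2 were lower and 4 higher with UDCA, and between the diets 5 were lower with CA and 1 higher. With median centring 6 were lower and 3 higher with CA. By limma 1 was lower and 0 were higher with UDCA, where 4 were higher at an unadjusted p under 0.05, and 3 were lower and 0 higher between the diets, also at an unadjusted p under 0.05 for the latter. Clec4f and Marco, genes of resident Kupffer cells, were -3.37 and -2.29 with CA (adjusted p = 2.12e-08 and 1.23e-08), and the 3 that were higher were the complement genes C1qa, C1qb and C1qc. The median of the list ran from -1.84 to -0.61 over the CA arrays and from -0.13 to 0.68 over the UDCA arrays. The summed intensity ran from 29800 to 84480 in CA-fed knockout, 23050 to 39310 in wild type on those arrays, 25990 to 40990 in UDCA-fed knockout and 22830 to 28930 in its wild type. All 10 were above background on some array. The part of Kupffer cells in the fall of Tlr5 or in the other ratios was not tested.

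Markers of other cell types were counted in the same way. Over all genes, 38.2% were higher and 22.3% lower with CA, and 17.4% and 8.79% with UDCA. The endothelial counts below lay near these shares, and so did the T and NK count with UDCA. The endothelial median was 0.06 with CA and 0.09 with UDCA, against 0.11 and 0.04 over all genes. Of 9 cholangiocyte markers, 9 were higher with CA and 5 with UDCA, and of 11 stellate cell and fibroblast markers, 11 and 10. Their summed intensities were 47140 to 164500 and 80960 to 150900 in CA-fed knockout, and 16600 to 34210 and 60700 to 114600 in UDCA-fed knockout. In wild type they were 7746 to 41320 and 20590 to 61720 on the CA arrays, and 6730 to 7626 and 19120 to 24870 on the UDCA arrays. With CA and UDCA respectively, 2 and 1 of 3 neutrophil markers tested were higher, 4 and 2 of 5 dendritic cell markers, 3 and 1 of 4 B and plasma cell markers, 3 and 1 of 6 T and NK cell markers, and 4 and 1 of 11 endothelial markers. The endothelial list had 2 lower genes with CA and 1 with UDCA, the T and NK list had 1 with CA, and the hepatocyte list had 3 of 10 lower with each diet. These hepatocyte counts are uncertain, since 9 of the 10 were saturated on 3 or more arrays and the list's median turned with the dye. It was between 1.73 and 1.90 on the CA arrays with the knockout in Cy5 and between -2.40 and -2.11 on those with it in Cy3. With CA 0 of the 10 were lower by limma with Agilent's processed signals or with median centring, where 1 and 3 were at an unadjusted p under 0.05. With median centring, the hepatocyte factor Hnf4a with CA moved from -0.61 to 0.09 and the endothelial gene Kdr with UDCA from -0.38 to 0.05, neither called. The neutrophil markers Elane and Ngp, the B cell markers Cd79a and Pax5, and the cytotoxic markers Gzma and Prf1 were not well above background on any array. All 4 pancreas markers tested were lower with CA. Their median was -3.65 and -3.26 on CA arrays 3 and 4, which share slide 2, and ran from -0.73 to -0.13 over the remaining 4 arrays of that group. Over the CA arrays their summed intensity reached 65780 in wild type and 7209 in knockout. CA arrays 3 and 4 carry opposite dyes, and their residuals from the fit correlated most highly among such CA pairs (0.109). Whether the slide or shared RNA sets these arrays apart was not tested. Without slide 2 the CA calls of the 9 members were the same, at 7 higher and 1 lower.

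**Figure D5:**
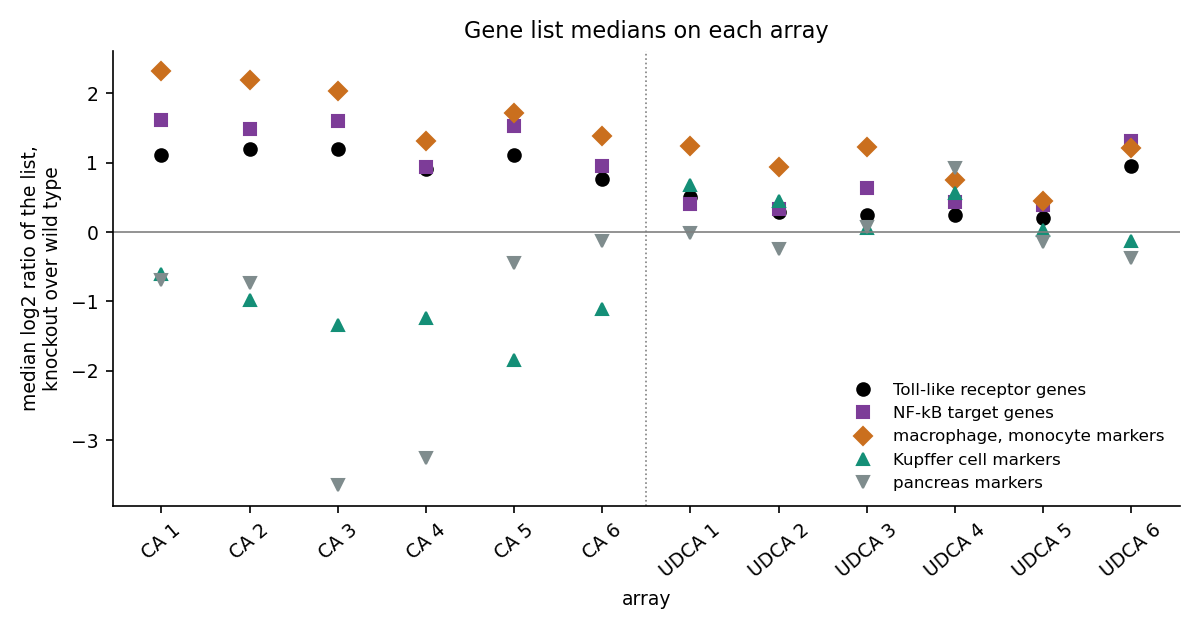
Median log2 ratio of knockout over wild type (vertical axis) on each of the 12 arrays for the 9 Toll-like receptor genes, 17 NF-kB target genes, 13 macrophage and monocyte markers, 10 Kupffer cell markers and 4 pancreas markers. The median of the Toll-like receptor genes lies between 0.76 and 1.20 on the CA arrays and between 0.21 and 0.95 on the UDCA arrays, where UDCA array 6 is highest.

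UDCA array 6, alone on slide 5, had the highest ratio of its group for 8 of the 9 members, which were Tlr1, Tlr2, Tlr3, Tlr4, Tlr5, Tlr7, Ly96 and Nfkbia. The exception was Myd88. On this array the median over the members was 0.95, against 0.21 to 0.51 on the other UDCA arrays, and the median over the NF-kB target genes was 1.31, against 0.34 to 0.63. The cholangiocyte markers also stood apart there, with a median of 2.36 against 0.29 to 1.04. So did the neutrophil markers, of which 3 of 12 were tested, at 1.87 against 0.055 to 0.86. The NF-kB and IRF factors stood apart too, at 0.80 against 0.34 to 0.51. So did the B and plasma cell markers, of which 4 of 9 were tested, at 0.82 against -0.055 to 0.36. The macrophage and monocyte median did not, at 1.21 against 1.24 on UDCA array 1. The Kupffer cell median there was -0.13, the lowest of the UDCA arrays. The part of these cell types in the member ratios was not tested. Without UDCA array 6, 3 members were called higher with UDCA, as with it. The median red signal before correction was 97 on this array, against 59.5 to 66.2 on the other UDCA arrays. Whether the slide, the signal strength or the mouse sets this array apart was not tested.

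For each member, the 2 other genes with the most similar ratios over the 12 arrays were found by Pearson correlation over all genes tested. These points fall into the 2 diet groups and share arrays and slides, so the correlations are descriptions. For Tlr1 they were Pftk1 (0.983) and Sepn1 (0.981), for Tlr2 Gucy1b3 (0.977) and Ralgds (0.976), and for Tlr4 AV249152 (0.987) and Nexn (0.977). For Tlr7 they were P2ry14 (0.983) and Il10ra (0.98), and for Tlr3 Pla2g4a (0.966) and Nav1 (0.959). Tlr5, Ly96 and Myd88 had less close neighbours. These were AV373767 (0.906) and Tas1r3 (0.905) for Tlr5, Drr1 (0.924) and Serpinb1a (0.919) for Ly96, and LOC433886 (0.956) and Pola2 (0.921) for Myd88. For Nfkbia they were Sppl3 (0.986) and 1500012F01Rik (0.971). Among the members themselves, Tlr1 and Tlr3 were the most alike (0.923), followed by Tlr1 and Tlr7 (0.914), while the correlations of Ly96 with the other members lay between -0.33 and 0.16.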

How the data were processed

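The 12 arrays (6 per diet group) were read by the authors with Feature Extraction 9.5.3, per the labels. Per the file headers, the deposited files hold the mean intensity and local background intensity of each spot without normalization, and processed intensity values after background subtraction and dye normalization, with the log10 of red divided by green. The deposited series table gives log2 ratios of unknown normalization. Its columns had medians between -0.044 and 0.047 and correlated with the scanner ratios at -0.887 to -0.668 on 6 arrays and 0.751 to 0.839 on the other 6, and each column's direction was taken from that sign. Probe positions are in mm7, per the file headers.

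Intensities were corrected with normexp (offset 50) and normalized by loess within arrays, using limma 3.58.1 and data.table version 1.17.8 under R 4.3.3. Control spots (1639 of 45018) were left out, values of non-uniform or outlying spots were dropped (0.922% of those tested), and spots of a probe were averaged. A probe was kept if, in either diet group, one channel was well above background on 5 or more of the 6 arrays, which kept 21693 probes, of which 21688 could be tested. Ratios were turned to knockout over wild type and fitted by limma with CA, UDCA and dye terms (9 residual and 5.95 prior degrees of freedom). Channel levels were scaled between arrays with Aquantile. Precision is limited by the number of arrays. The labels do not say which arrays form the technical dye swap. The highest residual correlation was 0.109 for CA arrays 3 and 4 and 0.093 for UDCA arrays 3 and 5. The pairs were not identified by this, so all 6 arrays per group were kept, and p-values are too small. With the possible pair averaged, no called member lost its call, but adjusted p moved for Tlr5 between the diets from 0.017 to 0.0497 and for Ly96 with CA from 0.00365 to 0.0126.

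The members, the gene lists and the rule for named genes were chosen with earlier results of these data known. All members were named, with up to 3 called genes of largest change per pathway list and comparison, up to 2 per marker list, and the 2 nearest genes per member. Promoter sequences are from RefSeq (GRCm38.p6). The fit was tested on simulated data. Alternatives were other background corrections and scalings, filters, dye, slide and replicate terms, and arrays left out.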

Additional observations from a re-analysis of the deposited data

Results flagged for a closer look

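In 18 sets of 6 arrays examined (9 members in each diet group), 1 array lay far from the others of its group, and chance gives about 1 in 20. It was the Ly96 ratio on UDCA array 6, at 1.98 on the log2 scale against 0.73 to 1.0 on the other 5. This array was alone on its slide.

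The ratio to wild type differed between CA and UDCA, by limma's test of the difference with adjustment over all probes, for 7 members. These were Tlr1 (0.98, adjusted p = 0.00171), Tlr2 (1.21, adjusted p = 0.000916), Tlr3 (0.55, adjusted p = 0.015), Tlr4 (0.74, adjusted p = 0.013), Tlr5 (-0.63, adjusted p = 0.017), Tlr7 (1.13, adjusted p = 0.0039) and Nfkbia (1.23, adjusted p = 0.000424). Over all genes tested, 19.0% were higher with CA than with UDCA and 8.81% lower. With median centring in place of loess, only Tlr7 of these members kept its call. The second Tlr3 probe did not pass (0.23, adjusted p = 0.27).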

How the results depend on the processing

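Of 603 member values under other settings, 568 kept their direction and side of the threshold. All 8 members called with CA kept their call under every setting that tested them, and so did Tlr2 and Ly96 with UDCA. Only 3 members were tested under the stricter filter on dim probes, with 2 higher and 0 lower with CA, 1 higher with UDCA, and 2 higher and 0 lower between the diets. Members higher with UDCA numbered 6 with Agilent's processed signals and 5 with each diet group fitted alone. With median centring, 1 member was higher and 0 were lower between the diets, and the pathway lists together had 1 lower with CA, 0 lower with UDCA, and 4 higher and 2 lower between the diets. With slide as a fixed block, 0 members were lower between the diets, and the pathway lists had 3 lower with UDCA and 13 higher between the diets. With the series value table, 9 pathway genes were lower between the diets. Without slide 1 or slide 2, both added after seeing the data, 0 members were lower between the diets, and without slide 1 8 pathway genes were. Leaving out 1 array at a time changed no count of members. It left 42 to 43 pathway genes higher and 10 to 14 lower with CA, 24 to 29 and 6 to 8 with UDCA, and 22 to 28 and 4 to 9 between the diets, the 9 being without CA replicate 1.

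Values that were not called changed sign as follows. Myd88 with CA was -0.017 with Agilent's processed signals and -0.073 without slide 1. Nfkbia with UDCA was -0.039 with Agilent's processed signals, -0.041 with the series table, -0.11 with slide as a fixed block and -0.048 with the possible dye-swap pair averaged, and ran from -0.12 (without UDCA replicate 3) to 0.097 with 1 array left out, at -0.057 without UDCA replicate 6. Tlr5 with UDCA was 0.23 with median centring and ran from -0.084 to 0.050 (without UDCA replicate 4) with 1 array left out. Myd88 between the diets was 0.011 with the dye-swap pair averaged, 0.075 without slide 2, and ran from -0.18 to 0.033 (without CA replicate 3) with 1 array left out. The causes were not tested. With a replicate block, all 27 member values kept their direction and call, and the deviations of same-numbered arrays, which share a dye, correlated at -0.28 to 0.46, with the own number the best match for 3 of 6. The numbers were therefore not taken to pair the arrays. Low signal over background in wild type limits the ratios of Tlr1, Tlr3, Tlr4 and Tlr7.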
